A study of Mus musculus with 15 samples.

Results

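The potassium channel genes of the aged mouse hippocampus were examined as 1 gene family. Members were the protein-coding genes whose symbol starts with Kcn, which gave 94 of the 55401 genes counted, in 21 subfamilies named by their prefix. Of the 94 genes, 83 had enough reads to be tested and 11 did not. Membership rested on the gene name alone. Symbols came from the GENCODE M21 annotation, which held 55141 of the genes counted on M25, so members among the rest would be missed.

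RNA of the hippocampus came from 15 female mice in 4 groups. The paper's methods give their age as 18 to 20 months, and its discussion gives a higher age where it treats dendritic spines. Tg2576 mice carry a human amyloid precursor protein gene with the Swedish mutation, driven by the prion promoter, and are labelled Tg2576 +/+, while their wild-type (WT) littermates are labelled Tg2576 -/-. Mice of each genotype received daily for 5 weeks, by stomach tube, either docosahexaenoic acid (DHA) at 450 mg/kg diluted in sesame oil or the sesame oil vehicle. There were 4 libraries in each group except Tg2576 DHA, which had 3, and each was taken as 1 mouse. Nothing in the labels says whether any library was pooled, so p-values measure the spread between libraries. The study asked how DHA acts on memory and Alzheimer pathology in these mice, and used RNA sequencing to look for the mechanism. Its mice went through fear conditioning with foot shocks and the Morris water maze. Spines and amyloid were also measured, and no channel function was tested.

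Potassium channels let potassium ions cross the cell membrane along their gradient, which in most neurons brings the membrane back towards rest. Voltage-gated (Kv) channels end the action potential and set the firing rate, inward rectifiers (Kir) and 2-pore channels hold the resting potential, and calcium- or sodium-activated channels shape the pause after a spike. In the hippocampus, G protein-gated Kir channels carry slow inhibition by GABA and adenosine, Kv4 channels limit signals that travel back into dendrites, and astrocytic Kir4.1 clears potassium from the space around active neurons.

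Levels are given as reads per 1000000 counted reads (CPM) after scaling by the trimmed mean of M values (TMM), and as CPM per kb of exon where different genes are compared. Library totals ran from 17372864 to 46596489 counted reads, of which the 94 genes took 0.550 to 0.660%. App, the mouse gene to which the transgene is closest, read 1571 to 1786 CPM in WT and 2075 to 2785 CPM in Tg2576 mice, without overlap. Dentate, CA1 and CA3 marker genes were present in all 15 mice. The choroid plexus, an epithelium next to the hippocampus that makes transthyretin (Ttr), was present in unequal amounts, since Ttr ran from 33.5 to 5598 CPM. It exceeded 1000 CPM in WT vehicle mice 1 and 3, WT DHA mouse 3, Tg2576 vehicle mice 1 and 2 and all 3 Tg2576 DHA mice, so the Tg2576 DHA group was the only 1 of the 4 with no low mouse.

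Kv pore subunits were present across the range. Kcnq3 and Kcnq5, subunits of the M-current that restrains repeated firing, had 12.7 and 9.98 CPM per kb (mean of 15 mice). The Kv3 genes Kcnc4 (28.8), Kcnc1 (24.03) and Kcnc2 (12.04), known from fast-spiking neurons, were all measured in every mouse. The Kv4 gene Kcnd2 had 19.7 CPM per kb, and the axonal Kv1 genes Kcna2 and Kcna1 had 17.7 and 10.1. Among the eag-type genes, Kcnh3 reached 28.7 and no other exceeded 7.94 (Kcnh2). Silent subunits, which form channels only together with Kv2 subunits, were led by Kcnf1 (16.99) and Kcng1 (11.5).

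Auxiliary subunits held the highest levels. Kcnab2, the Kvβ2 subunit that binds Kv1 channels and helps to place them in axons, had 147 CPM per kb, and Kcnip2, a calcium-binding partner of Kv4, had 59.2. Both stood above every pore subunit in this ranking. Kcnip3 (also known as calsenilin or DREAM) had 29.7 and Kcnip4 10.5. Of the Kir genes, Kcnj4 (43.1), the astrocytic Kcnj10 that encodes Kir4.1 (40.6), and the G protein-gated Kcnj9 (33.4) and Kcnj3 (25.1) were the most abundant, while the third G protein-gated gene Kcnj6 had 3.53. Kcnk1 (31.1) led the 2-pore leak genes, above Kcnk9 (10.04) and Kcnk2 (7.45). Kcnma1, the pore of the large-conductance calcium-activated (BK) channel, had 13.8, and the sodium-activated Kcnt1 had 13.9.

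Over all members, 29 exceeded 10 CPM per kb, 37 lay between 1 and 10, and 28 lay under 1. The 11 genes that could not be tested (Kcna7, Kcna10, Kcne1, Kcnj1, Kcnj15, Kcnk7, Kcnk15, Kcnk16, Kcnk18, Kcnmb3 and Kcnv2) had at most 63 reads over all mice and at most 10 in 1 mouse, and Kcnk16 had none. Summed per kb, the Kcnj genes (173), the 3 Kcnab genes (168) and the 4 Kcnip genes (103) were the most abundant subfamilies. By group, the Kcnj sum was 179 ± 12.5 in WT vehicle, 182 ± 5.08 in WT DHA, 162 ± 6.07 in Tg2576 vehicle and 169 ± 11.3 in Tg2576 DHA mice (mean ± SD, CPM per kb).

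**Figure D1:**
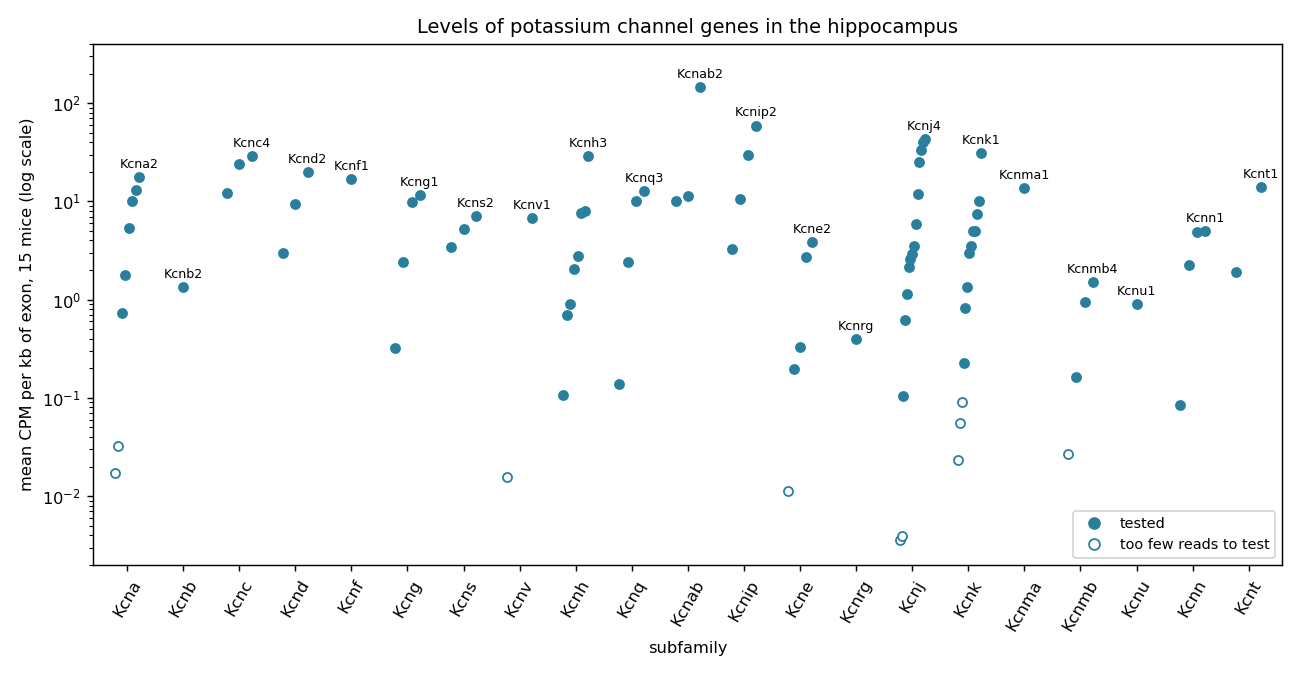
Mean level of 90 of the 94 potassium channel genes over the 15 mice, in CPM per kb of exon on a log axis, by subfamily. Filled points are genes tested and open points those with too few reads, Kcnk16 at 0 is not drawn, and the highest gene drawn in each subfamily is named, with Kcnab2 at the top (147 CPM per kb).

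The median level of the family differed from mouse to mouse. For each mouse, the median deviation of the 83 genes from their own means was taken on the log2 scale. It was 0.13, 0.08, -0.03 and 0.04 in WT vehicle mice 1 to 4 and 0.04, -0.00461, -0.14 and -0.12 in Tg2576 vehicle mice 1 to 4. WT vehicle mice 1 and 2 were the highest of their group and Tg2576 vehicle mice 3 and 4 the lowest of theirs, and the groups overlapped. Under DHA the values were 0.08, 0.08, 0.00359 and -0.08 in WT mice and -0.10, 0.06 and 0.04 in Tg2576 mice, which overlapped too.

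The deviation was set beside gene length. The difference between the median deviation of the longest quartile of all tested genes (exons over 6039 bases) and of the shortest quartile (under 2069 bases) was 0.20 and 0.20 in WT vehicle mice 1 and 2. It was -0.32 in Tg2576 vehicle mouse 4 and -0.37 in Tg2576 DHA mouse 1. Tg2576 DHA mouse 2 had the highest value of all mice (0.21) and WT DHA mouse 4 had -0.21. Both genotypes therefore held high and low mice when both treatments were counted. Under vehicle, the median was 0.10 in WT mice (-0.10 to 0.20) and -0.09 in Tg2576 mice (-0.32 to 0.06), with overlap. Under DHA the order was reversed, with medians of -0.05 in WT and 0.10 in Tg2576 mice. Potassium channel genes had a median exon length of 4508 bases, against 3693 for all tested genes, and 22 of the 83 were in the longest quartile. The share of the length measure in the results below was examined by refitting with an offset for gene length, whose values are given for each comparison.

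**Figure D2:**
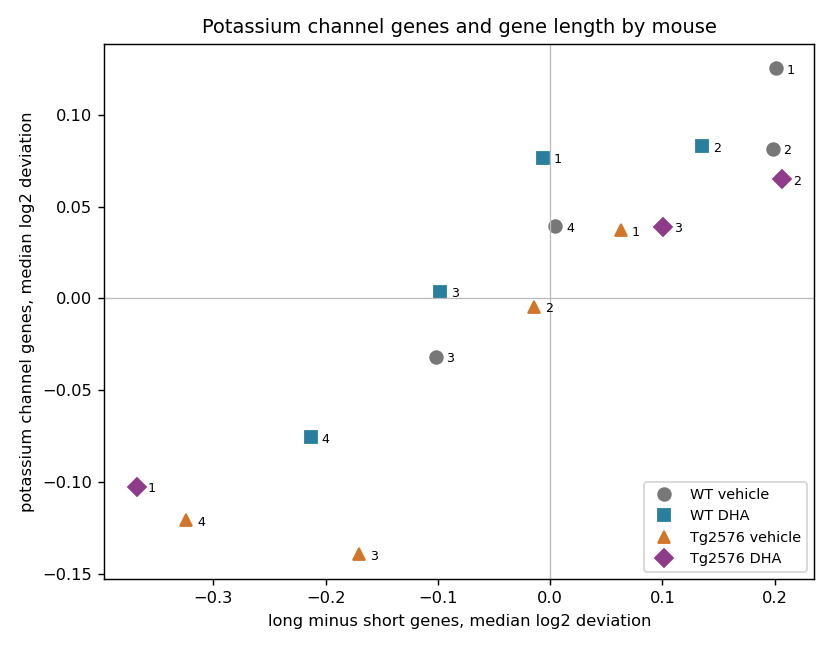
For each of the 15 mice, the median log2 deviation of the 83 potassium channel genes (y axis) against the median deviation of long minus short genes (x axis), numbered by mouse. WT vehicle mice 1 and 2 stand at the upper right, beside Tg2576 DHA mouse 2, and Tg2576 DHA mouse 1 and Tg2576 vehicle mouse 4 at the lower left.

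A pair of members followed the choroid plexus content of the libraries. Kcnj13 encodes Kir7.1 and Kcne2 a single-span auxiliary subunit, and both are known from the epithelium of the choroid plexus. Kcnj13 read 7.70, 0.290, 4.56 and 0.421 CPM in WT vehicle, 0.0880, 1.20, 10.7 and 0.288 in WT DHA, 1.87, 6.23, 0.386 and 0.325 in Tg2576 vehicle and 9.21, 6.26 and 6.19 in Tg2576 DHA mice. Kcne2 read 11.1, 0, 11.3 and 0.331 CPM, 0.528, 1.43, 14.8 and 0.479 CPM, 4.42, 14.4, 1.03 and 0.772 CPM and 17.4, 9.04 and 14.4 CPM in the same groups. Both genes were high in the mice with Ttr above 1000 CPM and low in the others, whatever the group. Over the 15 mice, Pearson's r of log2 CPM with Ttr was 0.972 for Kcnj13 and 0.951 for Kcne2, given as a description, since all 3 genes come from the same libraries. The next member by this measure was Kcnh2 (0.570), and the lowest was Kcnip2 (-0.808). Kcnj13 shares 49.1% of its exon bases with Gigyf2, and reads in shared bases were counted for neither gene.

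None of the comparisons passed the test for either gene. DHA against vehicle in Tg2576 mice gave Kcnj13 a log2 fold change of 1.68 (SE 1.41, adjusted p = 0.999) and Kcne2 one of 1.37 (SE 1.47, adjusted p = 0.999). These were the first and the third largest of the 83 log2 differences in this comparison, with Kcne3 between them. The DHA group had 3 of 3 mice with high Ttr and the vehicle group 2 of 4, so choroid content and DHA cannot be told apart within these 7 mice.

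**Figure D3:**
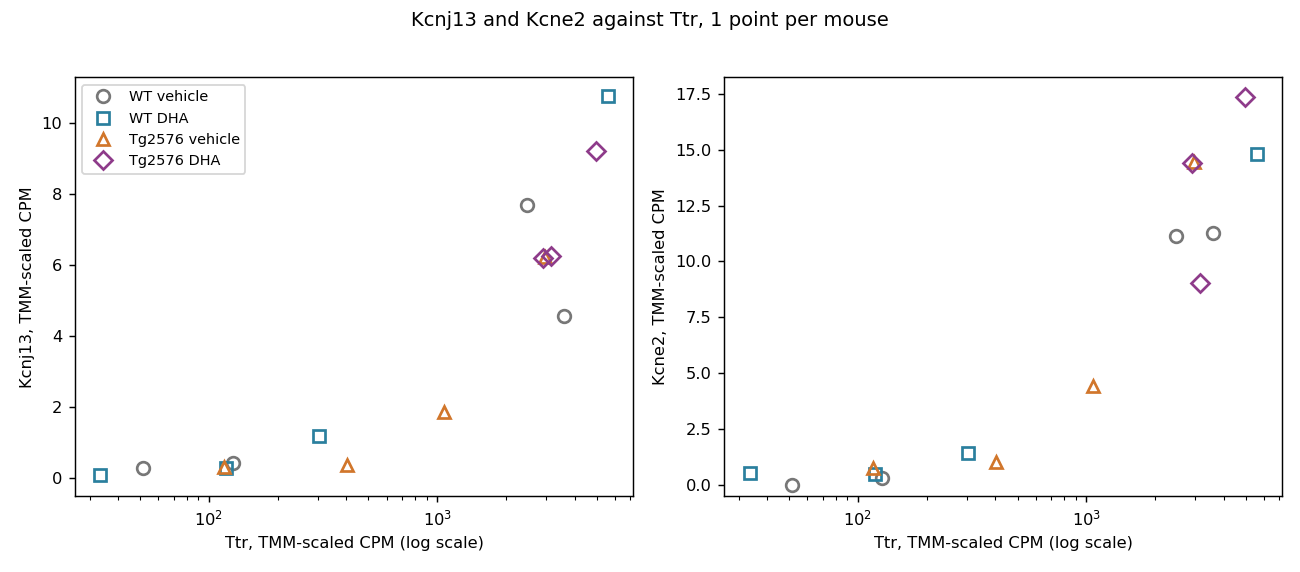
Kcnj13 (left) and Kcne2 (right) in TMM-scaled CPM against Ttr in TMM-scaled CPM on a log axis, with 1 point per mouse and a symbol per group. In both panels the mice with Ttr above 1000 CPM stand above all the others.

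The promoters of this pair are shown beside those of Kcnj6 and Kcna4, a pair of neuronal pore-subunit genes that were lower in Tg2576 mice under vehicle (below). Each run holds the 250 bases before a RefSeq start on GRCm38.p6, read 5′ to 3′ in the direction of the gene, and for Kcne2 and Kcnj6, which have 2 starts, the one furthest upstream. Capitals mark matches on either strand to 4 short motifs, namely the GC box GGGCGG, the TATA box TATAAA, the cyclic AMP site TGACG and the OTX-type site TAATCC. No motif shares bases with another in these windows.
Kcnj13 (chr1:87394730-87394979, minus strand): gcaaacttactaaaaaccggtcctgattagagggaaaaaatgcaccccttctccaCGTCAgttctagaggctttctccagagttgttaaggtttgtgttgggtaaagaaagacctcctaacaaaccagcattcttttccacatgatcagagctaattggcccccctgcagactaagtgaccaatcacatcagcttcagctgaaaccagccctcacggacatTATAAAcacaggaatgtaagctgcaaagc
Kcne2 (chr16:92292139-92292388, plus strand): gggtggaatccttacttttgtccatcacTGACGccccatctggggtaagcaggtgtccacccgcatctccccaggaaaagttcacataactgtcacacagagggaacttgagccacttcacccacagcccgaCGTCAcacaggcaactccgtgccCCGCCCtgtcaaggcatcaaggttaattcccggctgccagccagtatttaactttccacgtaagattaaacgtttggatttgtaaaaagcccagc
Kcnj6 (chr16:94997697-94997946, minus strand): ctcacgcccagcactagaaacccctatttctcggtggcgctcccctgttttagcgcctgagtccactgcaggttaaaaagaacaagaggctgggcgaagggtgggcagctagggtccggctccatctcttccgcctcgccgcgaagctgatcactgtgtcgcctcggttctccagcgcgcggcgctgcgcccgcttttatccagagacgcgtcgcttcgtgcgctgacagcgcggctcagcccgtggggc
Kcna4 (chr2:107290339-107290588, plus strand): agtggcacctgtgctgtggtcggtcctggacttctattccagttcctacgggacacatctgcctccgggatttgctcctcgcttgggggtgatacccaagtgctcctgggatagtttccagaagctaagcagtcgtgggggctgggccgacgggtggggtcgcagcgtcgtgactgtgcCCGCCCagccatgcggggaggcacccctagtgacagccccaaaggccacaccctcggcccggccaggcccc

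The Kcnj13 window held a TATA box and a cyclic AMP site, the Kcne2 window a GC box and 2 cyclic AMP sites, the Kcna4 window a GC box, and the Kcnj6 window none of the 4. The OTX-type site was in none of them. Of all 32851 RefSeq windows of this length, 32.7% held the GC box, 12.4% the TATA box, 17.8% the cyclic AMP site and 6.25% the OTX-type site. In the 94 windows of the 69 members with an entry, the shares were 44.7%, 3.19%, 15.96% and 2.13%. Guanine and cytosine made up 45.2% of the Kcnj13 and 52.4% of the Kcne2 window, against 64.00% for Kcnj6 and 65.2% for Kcna4. A match is a description of the letters and was not tested as a binding site.

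Under vehicle, 5 potassium channel genes were lower in Tg2576 than in WT mice and none was higher at an unadjusted p under 0.01 (quasi-likelihood F test of edgeR). They were Kcnj6, Kcna4, Kcnv1, Kcng4 and Kcnd2. The share was 5 of 83 genes (6.02%), against 3.09% of all 19536 genes tested in both directions and 1.93% in the lower direction. No member reached an adjusted p under 0.05 in this or any other comparison, against 0.0154% of all genes here, 0.00512% for genotype under DHA, 0.205% for genotype averaged over treatments and 0% in the others. Beside each gene called between 2 groups stands the p of a two-sided exact permutation test on log2 CPM, whose smallest value is 0.0286 with 4 mice against 4 and 0.0571 with 4 against 3. In bulk tissue, fewer cells of a type and less RNA per cell cannot be told apart.

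Kcnj6 encodes GIRK2, the subunit that joins Kcnj3 and Kcnj9 products in the channels opened by GABA-B and adenosine receptors, and lies at chr16:94748636-94997701 (GRCm38). It read 44.8, 52.1, 22.9 and 30.9 CPM in WT vehicle mice 1 to 4 and 24.1, 20.5, 15.1 and 14.3 CPM in Tg2576 vehicle mice 1 to 4. WT mice 1 and 2 were high, and the lowest WT mouse lay below the highest Tg2576 mouse. The group means were 37.7 ± 13.2 and 18.5 ± 4.63 CPM (SD), and Kcnj6 fell to 0.491 of the WT level (log2 fold change -1.03, SE 0.27, p = 0.00194, adjusted p = 0.207, exact permutation p = 0.0571). Its partners gave log2 fold changes of -0.17 (SE 0.10, adjusted p = 0.553) for Kcnj3 and -0.08 (SE 0.09, adjusted p = 0.788) for Kcnj9, which did not pass.

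Kcna4 (Kv1.4, chr2:107290639-107298502) forms an inactivating current in axons and terminals. It read 35.3, 31.2, 27.5 and 30.3 CPM in WT vehicle and 22.5, 28.3, 20.8 and 16.3 CPM in Tg2576 vehicle mice (log2 fold change -0.50, SE 0.14, p = 0.00203, adjusted p = 0.207, exact permutation p = 0.0571). A single Tg2576 mouse, number 2, reached into the WT range.

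Kcnv1 (chr15:45106284-45114920), a silent subunit that joins Kv2 channels, read 39.7, 40.01, 29.6 and 36.7 CPM against 22.97, 28.4, 29.1 and 29.2 CPM (log2 fold change -0.41, SE 0.11, p = 0.00168, adjusted p = 0.198, exact permutation p = 0.0286). The groups did not overlap, and Tg2576 mouse 1 stood below the other three. Kcng4 (Kv6.4, chr8:119623854-119635680), another silent subunit, read 12.3, 9.90, 13.4 and 10.8 CPM against 7.26, 9.11, 7.99 and 7.39 CPM (log2 fold change -0.55, SE 0.18, p = 0.00656, adjusted p = 0.293, exact permutation p = 0.0286), also without overlap. Kcnd2 (Kv4.2, chr6:21215503-21729805), the main dendritic A-type subunit of pyramidal neurons, read 118, 141, 98.4 and 118 CPM against 110.3, 89.4, 86.8 and 76.9 CPM (log2 fold change -0.39, SE 0.13, p = 0.00825, adjusted p = 0.309, exact permutation p = 0.0571), and the groups overlapped in WT mouse 3 and Tg2576 mouse 1.

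Kcnj6, Kcna4 and Kcnv1 kept a p under 0.01 with any 1 of the 15 mice left out and in all 7 other settings, including the length offset and Ttr as a covariate. Kcng4 lost it without WT vehicle mice 1 or 3 or Tg2576 vehicle mice 1, 3 or 4 (p at most 0.0248, without WT vehicle mouse 3), and Kcnd2 without WT vehicle mice 1, 2 or 4, WT DHA mice 3 or 4 or Tg2576 vehicle mice 2, 3 or 4 (p at most 0.04, without WT vehicle mouse 2). Both also lost it on library sizes without TMM factors, and Kcnd2 in the fit blocked on replicate number and with Ttr as a covariate. The number of members called was 3 without WT vehicle mouse 1 or Tg2576 vehicle mouse 4, 8 without Tg2576 DHA mouse 1 and 10 without WT vehicle mouse 3. Without Tg2576 vehicle mice 2 or 3 it was 5 and 4, of which 4 and 3 were lower and the other one higher. With the length offset it stayed at 5. Interneuron marker genes summed to 1192 to 1464 CPM in WT vehicle and 1036 to 1234 CPM in Tg2576 vehicle mice. Of these 10 genes, 7 had a log2 fold change below 0. CA3 marker genes summed to 892 to 980 and 709 to 917 CPM (4 of 6 genes below 0). Oligodendrocyte precursor genes summed to 122 to 136 and 84.6 to 121 CPM (4 of 5 genes below 0). Marker lists of striatum, neocortex, microglia, endothelium, pericytes and meninges had a median log2 fold change above 0. The highest median was that of plaque-associated microglia (0.89, 8 of 10 genes above 0). All other marker lists had a median below 0, among them oligodendrocytes (-0.18) and dentate granule cells (-0.16). The part of cell makeup in these differences was not tested.

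Across the family, 61 of the 83 log2 fold changes were below 0 (73.5%), against 50% of all genes, with a median of -0.11 against 0.00. The median was -0.07 with the length offset. By subfamily, 12 of 13 Kcnj genes (median -0.27), 5 of 6 Kcna genes (-0.38) and all 4 Kcng genes (-0.32) lay below 0, while the 10 Kcnk genes were split evenly (0.01). The median SE of a single gene was 0.15. At an unadjusted p under 0.05, 13 members were lower and 1 was higher, which is 16.9% against 10.7% of all genes (6.13% lower and 4.62% higher).

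The 8 further lower genes at that level were Kcnb2, Kcnh1, Kcnc1, Kcnj10, Kcnq3, Kcnh5, Kcnab1 and Kcnd3, with log2 fold changes from -0.83 (Kcnh5) to -0.19 (Kcnab1). Kcnb2 read 27.5, 28.4, 18.5 and 21.6 CPM in WT vehicle and 17.4, 18.2, 15.1 and 16.98 CPM in Tg2576 vehicle mice, without overlap, and Kcnh5 read 5.90, 5.22, 3.04 and 2.83 against 3.06, 1.94, 2.40 and 2.19. Kcna1 (Kv1.1), the axonal subunit, read 78.8, 78.1, 49.2 and 47.3 CPM against 70.8, 42.7, 29.4 and 17.5 CPM, and it did not pass (log2 fold change -0.66, SE 0.41, adjusted p = 0.602). For Kcnb2, Kcnh5 and Kcna1 alike, WT vehicle mice 1 and 2 were higher than mice 3 and 4.

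The higher gene was Kcnt1 (Slack, a sodium-activated channel), which read 121, 98.7, 136 and 91.96 CPM in WT vehicle and 190.1, 112, 109 and 221 CPM in Tg2576 vehicle mice (log2 fold change 0.50, SE 0.21, p = 0.0287, adjusted p = 0.398, exact permutation p = 0.229). Tg2576 mice 1 and 4 were high and mice 2 and 3 lay inside the WT range. Tg2576 vehicle mouse 4 was also the highest mouse of all 15 for Kcnab3 (56.2 CPM), Kcns1 (22.1), Kcnk4 (21.6), Kcnh4 (12.6) and Kcnmb4 (8.49), and it was the lowest for Kcna1 (17.5) and Kcna3 (0.569). Its neocortex marker genes summed to 327 CPM, against 188 to 267 in the other mice, and the part of tissue makeup in these values was not tested.

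Of 36 genes that work with these channels but have no Kcn symbol, 35 were tested. Under vehicle, 2 were lower and none higher at p under 0.01, and 28 of the 35 log2 fold changes lay below 0, against 3.09% called (1.93% lower) and 50% below 0 among all genes. Dpp6, an auxiliary subunit of Kv4 channels, had 431 ± 29.2 CPM in WT vehicle and 353 ± 33.2 CPM in Tg2576 vehicle mice (log2 fold change -0.29, SE 0.08, adjusted p = 0.224). Kctd16, an auxiliary protein of the GABA-B receptor, had 11.6 ± 3.45 and 6.75 ± 1.14 CPM (log2 fold change -0.79, SE 0.26, adjusted p = 0.309). Under DHA, no partner gene passed between genotypes. Averaged over treatments, 2 of 35 were lower in Tg2576 mice and none higher, against 1.91% of all genes in the lower direction. These were Chrm1 (log2 fold change -0.22, SE 0.07, adjusted p = 0.185) and Dpp6 (log2 fold change -0.18, SE 0.06, adjusted p = 0.239). Lrrc38, an auxiliary subunit of BK channels, was lower with DHA in WT mice (log2 fold change -0.91, SE 0.27, adjusted p = 0.5997), 1 of 35 against 0.599% of all genes in that direction, and no partner gene passed with DHA in Tg2576 mice or in the interaction.

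**Figure D4:**
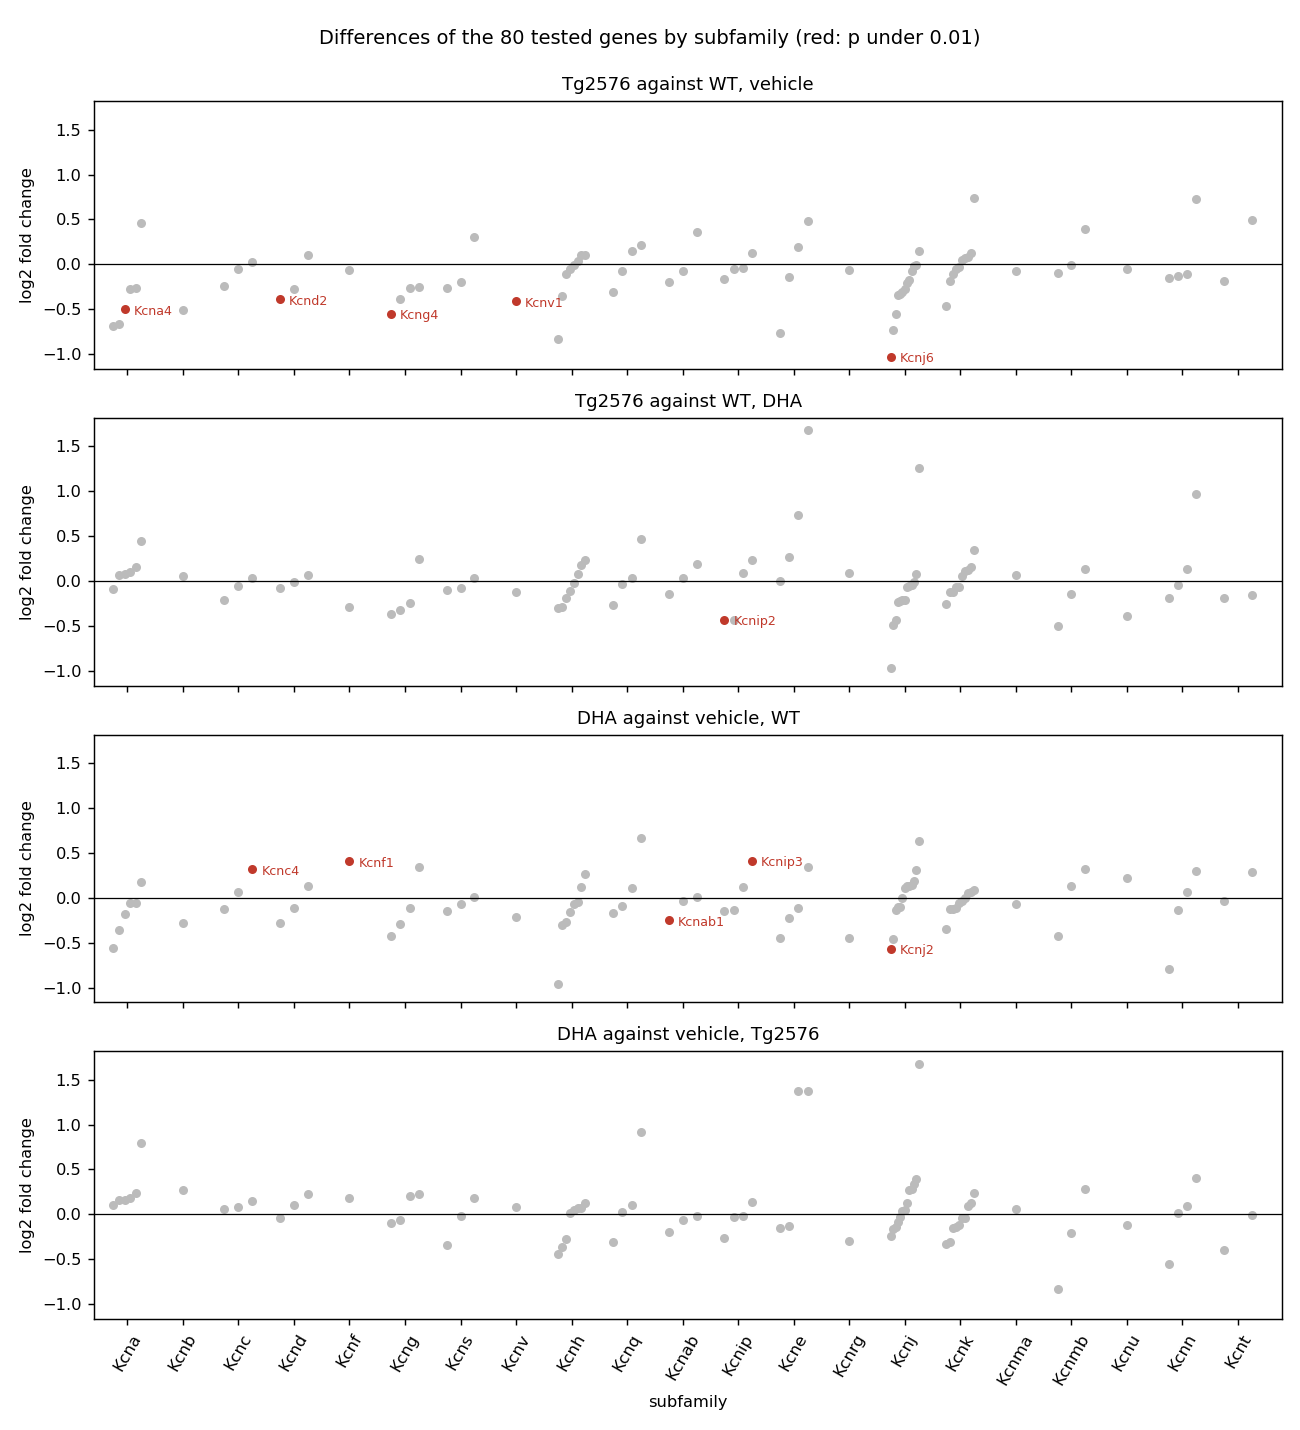
Log2 fold change (y axis) of 80 of the 83 tested potassium channel genes by subfamily (x axis), in 4 panels for the genotype comparison under vehicle and under DHA and for DHA against vehicle in WT and in Tg2576 mice. Red points passed an unadjusted p under 0.01, which 5, 1, 5 and 0 genes did, and grey points did not.

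Under DHA, a single member differed between the genotypes. Kcnip2 (KChIP2, chr19:45791839-45816061) read 290.1, 202, 219 and 259.9 CPM in WT DHA and 186, 168 and 185 CPM in Tg2576 DHA mice (log2 fold change -0.43, SE 0.13, p = 0.00465, adjusted p = 0.549, exact permutation p = 0.0571). The groups did not overlap, and with vehicle Kcnip2 read 205, 225, 208 and 255 CPM in WT and 194, 180.4, 233 and 254 CPM in Tg2576 mice, with overlap. This was 1 of 83 genes (1.20%), against 1.75% of all genes in both directions and 0.686% in the lower one. Kcnip2 was also the member with the most negative r with Ttr (above), and the 3 Tg2576 DHA mice all had high Ttr. With Ttr as a covariate, its log2 fold change was -0.22 and the call was lost, as it was without WT DHA mice 1 or 4 or Tg2576 DHA mice 2 or 3 (p at most 0.0265, without WT DHA mouse 1).

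The next members were Kcnip3 (log2 fold change -0.43, SE 0.15, adjusted p = 0.576) and Kcnh3 (log2 fold change -0.30, SE 0.11, adjusted p = 0.603), which did not pass. Kcnh3, a Kv12 subunit that restrains the firing of forebrain neurons, read 184, 156, 168 and 196 CPM against 144, 146 and 141 CPM, without overlap. Its r with Ttr was -0.604, and the Tg2576 DHA mice all had high Ttr (above). Kcnj6 read 31.6, 34.3, 21.8 and 21.5 CPM in WT DHA and 15.4, 26.01 and 28.9 CPM in Tg2576 DHA mice, with overlap. For the 5 genes lower in Tg2576 mice under vehicle, the log2 fold changes under DHA were -0.22 (SE 0.29) for Kcnj6, 0.11 (SE 0.15) for Kcna4, -0.12 (SE 0.12) for Kcnv1, -0.32 (SE 0.19) for Kcng4 and -0.01 (SE 0.14) for Kcnd2. Over the family, 48 of 83 values lay below 0 (57.8%), against 50.7% of all genes, with a median of -0.05. The median was -0.10 without Tg2576 DHA mouse 2 and 0.00106 without Tg2576 DHA mouse 1. With the length offset it was -0.08, with 2 members called. The count of members called was 0 without WT DHA mouse 4 or Tg2576 DHA mouse 3, 2 without WT DHA mouse 2, Tg2576 vehicle mice 1 or 4 or Tg2576 DHA mouse 1 and 3 without Tg2576 vehicle mouse 2. Without WT DHA mouse 1 it was 1, a higher gene in place of Kcnip2.

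In WT mice, 3 members were higher and 2 lower with DHA at p under 0.01, that is 5 of 83 (6.02%) against 1.38% of all genes (0.783% higher and 0.599% lower). Kcnc4 (Kv3.4, chr3:107438303-107459552), an inactivating Kv3 subunit, read 106, 108, 92.4 and 102 CPM with vehicle and 122, 122, 133 and 131 CPM with DHA (log2 fold change 0.32, SE 0.09, p = 0.00198, adjusted p = 0.540, exact permutation p = 0.0286). Every DHA mouse lay above every vehicle mouse, and Kcnc4 kept its p under 0.01 with any 1 mouse left out and in all 7 other settings. The means were 102 ± 6.83 and 127 ± 5.88 CPM (SD).

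Kcnf1 (Kv5.1, chr12:17172100-17176888), a silent subunit, read 74.5, 80.1, 70.8 and 72.96 CPM with vehicle and 76.3, 129, 91.1 and 98.5 CPM with DHA (log2 fold change 0.41, SE 0.14, p = 0.00829, adjusted p = 0.677, exact permutation p = 0.0571), with DHA mouse 2 far above the rest and mouse 1 inside the vehicle range. Without WT DHA mouse 2 its log2 fold change was 0.25 and it was no longer called. Kcnip3 (chr2:127456498-127522094) read 87.8, 102, 95.7 and 113 CPM against 117, 147, 123 and 143 CPM (log2 fold change 0.41, SE 0.14, p = 0.00854, adjusted p = 0.687, exact permutation p = 0.0286), without overlap. Kcnj2 (Kir2.1, chr11:111066164-111076821), a strong inward rectifier, fell from 17.6, 15.7, 11.1 and 13.8 CPM to 10.1, 9.21, 11.4 and 8.63 CPM (log2 fold change -0.57, SE 0.17, p = 0.00421, adjusted p = 0.5997, exact permutation p = 0.0571), with 1 vehicle mouse below the highest DHA mouse. Kcnab1 (Kvβ1, chr3:64949196-65378223), which speeds the inactivation of Kv1 channels, fell from 123, 138, 109 and 132 CPM to 112, 99.4, 104 and 106 CPM (log2 fold change -0.25, SE 0.08, p = 0.00726, adjusted p = 0.648, exact permutation p = 0.0571), with the lowest vehicle mouse below the highest DHA mouse.

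Leaving out 1 mouse ended the call for Kcnj2 (without WT vehicle mice 1 or 2 or WT DHA mice 2 or 4, p at most 0.0217), Kcnip3 (without WT vehicle mice 1, 2 or 3, WT DHA mice 2, 3 or 4 or Tg2576 vehicle mice 3 or 4, p at most 0.0313), Kcnf1 (without WT vehicle mice 1, 2, 3 or 4, WT DHA mice 2 or 4, Tg2576 vehicle mouse 3 or Tg2576 DHA mice 2 or 3, p at most 0.0551) and Kcnab1 (without WT vehicle mice 1, 2 or 4 or WT DHA mice 2, 3 or 4, p at most 0.0334). Kcnab1 also lost it with the length offset (log2 fold change -0.15), in the fit blocked on replicate number and without the filter on low counts. Kcnip3 lost it with 1 surrogate variable, and both Kcnip3 and Kcnf1 with Ttr as a covariate, where 3 members stayed called, 2 of them lower. The number called was 1 without WT vehicle mice 1 or 2 or WT DHA mouse 4, 2 without WT DHA mouse 2 and 3 without WT DHA mouse 3 or Tg2576 vehicle mouse 3. In the family, 52 of 83 values lay below 0 (62.7%), against 52.7% of all genes, and the median was -0.07 (-0.03 with the length offset). It was -0.02 without WT vehicle mouse 1 and -0.02 without WT DHA mouse 4. This comparison and the genotype comparison under vehicle share the 4 WT vehicle mice.

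In Tg2576 mice, no member passed p under 0.01 with DHA, against 0.353% of all genes. DESeq2 also called none, and 3 members had an unadjusted p under 0.05 with edgeR (3.61%, against 3.16% of all genes). These were Kcnh3 (log2 fold change -0.28, SE 0.11, adjusted p = 0.999), Kcnk4 (log2 fold change -0.33, SE 0.14, adjusted p = 0.999), the mechanosensitive leak channel TRAAK, and Kcnn3 (log2 fold change 0.41, SE 0.18, adjusted p = 0.999), a small-conductance calcium-activated subunit. The groups overlapped for all 3. In the same order, their r with Ttr was -0.604, -0.467 and 0.146, and the DHA mice all had high Ttr. The genes called in WT mice gave 0.08 (SE 0.09) for Kcnc4, 0.19 (SE 0.15) for Kcnf1, 0.14 (SE 0.15) for Kcnip3, -0.14 (SE 0.19) for Kcnj2 and -0.02 (SE 0.09) for Kcnab1 in Tg2576 mice. Of the 83 values, 38 lay below 0 (45.8%), against 50.9% of all genes, and the median was 0.02. The median was -0.03 without Tg2576 DHA mouse 2 and 0.08 without Tg2576 DHA mouse 1, and -0.00128 with the length offset, where no member was called. The number called was 1 without Tg2576 vehicle mouse 2 and 3 without Tg2576 DHA mouse 1.

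**Figure D5:**
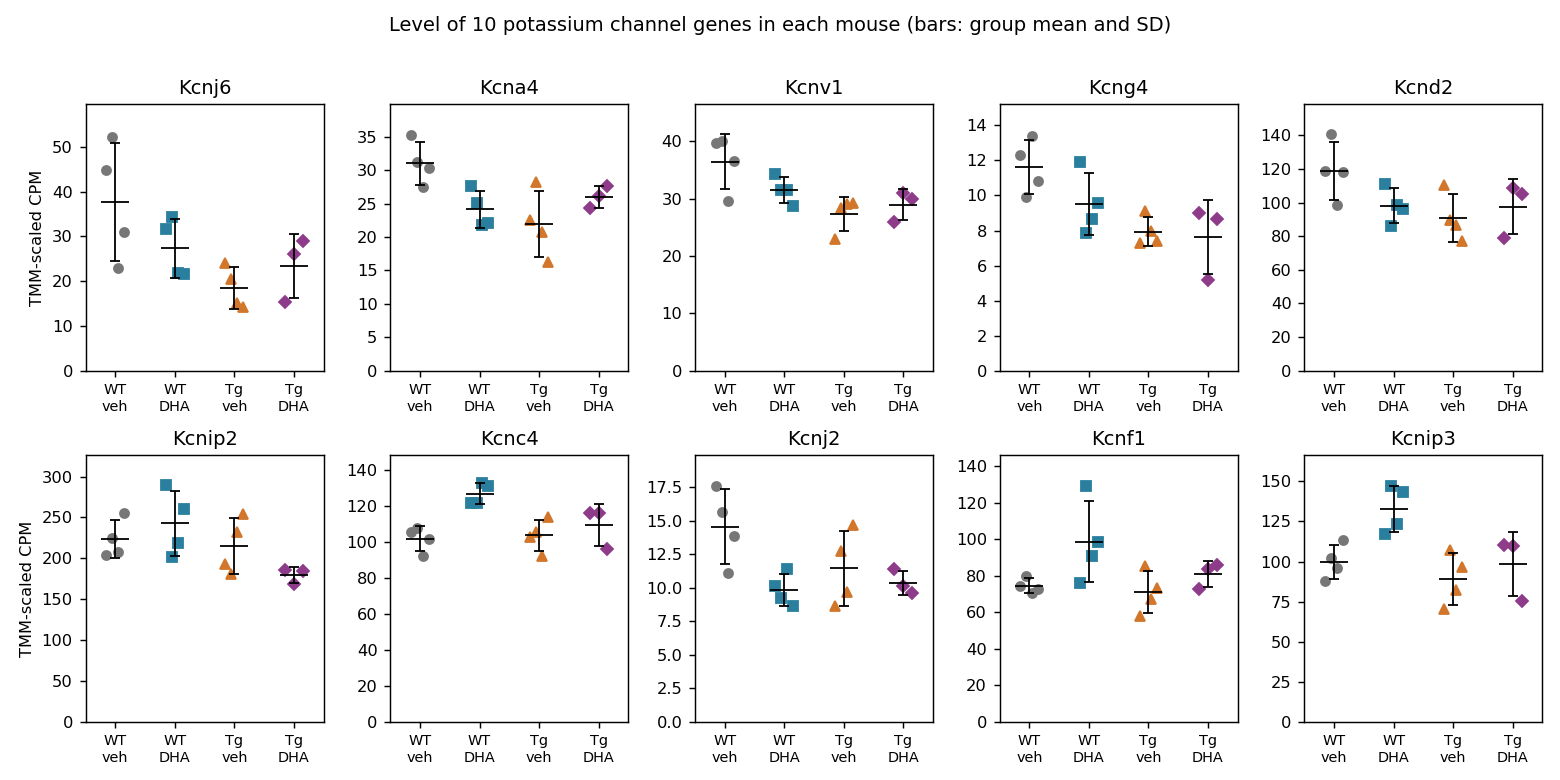
TMM-scaled CPM of 10 genes called between 2 groups, in each mouse, with the group mean and SD as bars, for WT and Tg2576 (Tg) mice with vehicle (veh) or DHA. Kcnab1, which was called for DHA in WT mice, is not drawn. Kcnc4 in the WT DHA mice (122 to 133 CPM) stands above all WT vehicle mice, and Kcnv1 and Kcng4 in the Tg2576 vehicle mice stand below all WT vehicle mice.

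The test of whether the DHA effect differed between genotypes passed for Kcna4 alone, 1 of 83 (1.20%) against 0.829% of all genes. Kcna4 read 27.7, 25.05, 21.8 and 22.1 CPM in WT DHA and 24.4, 26.1 and 27.6 CPM in Tg2576 DHA mice, and its log2 fold change with DHA was -0.36 (SE 0.14, adjusted p = 0.749) in WT and 0.24 (SE 0.15, adjusted p = 0.999) in Tg2576 mice. The difference of these effects was 0.60 (SE 0.20, adjusted p = 0.845). Neither effect passed by itself, and the call was lost without WT vehicle mice 1, 2 or 4, WT DHA mice 2, 3 or 4, Tg2576 vehicle mice 1, 3 or 4 or Tg2576 DHA mice 2 or 3 (p at most 0.0218). It was lost too with 1 surrogate variable and with Ttr as a covariate, and with the length offset 2 members were called, 1 in each direction. The number called was 0 without WT vehicle mice 1, 2 or 4, WT DHA mice 3 or 4, Tg2576 vehicle mice 1 or 4 or Tg2576 DHA mice 2 or 3, 2 without Tg2576 vehicle mouse 2 and 4 without Tg2576 DHA mouse 1.

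Averaged over both treatments, Kcng4 (log2 fold change -0.44, SE 0.13, adjusted p = 0.185), Kcnv1 (log2 fold change -0.27, SE 0.08, adjusted p = 0.202) and Kcnj6 (log2 fold change -0.63, SE 0.20, adjusted p = 0.238) were lower in Tg2576 mice and no member was higher, 3 of 83 (3.61%) against 3.85% of all genes in both directions and 1.91% in the lower one. Averaged over both genotypes, Kcnc4 (log2 fold change 0.20, SE 0.06, adjusted p = 0.9998), Kcnf1 (log2 fold change 0.30, SE 0.10, adjusted p = 0.9998), Kcnj16 (log2 fold change 0.29, SE 0.10, adjusted p = 0.9998) and Kcnn3 (log2 fold change 0.35, SE 0.12, adjusted p = 0.9998) were higher with DHA and none lower, 4 of 83 (4.82%) against 0.87% of all genes in both directions and 0.532% in the higher one. In the genotype average, Kcng4 lost the call without WT vehicle mouse 3, WT DHA mouse 1, Tg2576 vehicle mouse 4 or Tg2576 DHA mouse 2, Kcnv1 without WT vehicle mice 1 or 2, WT DHA mouse 1 or Tg2576 DHA mouse 1 or with Ttr as a covariate, and Kcnj6 without WT vehicle mice 1 or 2, WT DHA mice 1 or 2, Tg2576 vehicle mice 3 or 4 or Tg2576 DHA mice 1 or 2, without the filter on low counts or with Ttr as a covariate. In the DHA average, Kcnc4 lost it without WT vehicle mice 3 or 4, WT DHA mice 3 or 4, Tg2576 vehicle mouse 3 or Tg2576 DHA mice 1 or 2. Kcnf1, Kcnj16 and Kcnn3 lost it in 10, 11 and 11 of the 15 refits without 1 mouse. Kcnf1 kept it only without WT vehicle mouse 2, WT DHA mice 1 or 3, Tg2576 vehicle mouse 2 or Tg2576 DHA mouse 1, Kcnj16 without WT vehicle mouse 3, Tg2576 vehicle mice 2 or 3 or Tg2576 DHA mouse 1 and Kcnn3 without WT vehicle mouse 3, WT DHA mouse 4, Tg2576 vehicle mouse 2 or Tg2576 DHA mouse 1. All 3 lost it with Ttr as a covariate, Kcnf1 also with 1 surrogate variable, and Kcnj16 and Kcnn3 also without TMM factors. With the length offset the averages gave 6 and 4 calls. As totals, the genotype average gave 1 without WT vehicle mouse 2 or WT DHA mouse 1, 5 without WT vehicle mouse 3 and 6 without Tg2576 vehicle mouse 2, where the call without WT DHA mouse 1 was a higher gene and none stayed lower, and the DHA average gave 0 without Tg2576 DHA mouse 2, 1 without WT vehicle mice 1 or 4, WT DHA mice 2 or 4 or Tg2576 vehicle mouse 4 and 2 without WT vehicle mouse 2, WT DHA mice 1 or 3, Tg2576 vehicle mice 1 or 3 or Tg2576 DHA mouse 3.

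The other members known from non-neuronal cells and described here were not called between 2 groups, though Kcnj16 was in the DHA average. Kcnj10 (Kir4.1 of astrocytes) read 276, 274, 188 and 229 CPM in WT vehicle and 209.6, 197, 178 and 199.5 CPM in Tg2576 vehicle mice (log2 fold change -0.30, SE 0.12, adjusted p = 0.367). Its partner Kcnj16 (Kir5.1) read 20.2, 21.02, 24.04 and 18.9 CPM with vehicle and 24.5, 29.5, 25.2 and 24.5 CPM with DHA in WT mice, without overlap (log2 fold change 0.30, SE 0.13, adjusted p = 0.834), and 16.4, 25.3, 23.6 and 17.5 CPM against 22.9, 24.7 and 27.9 CPM in Tg2576 mice, with overlap (log2 fold change 0.28, SE 0.14, adjusted p = 0.999). The microglial leak channel Kcnk13 (THIK-1) had 11.01 ± 1.15, 8.68 ± 1.48, 7.96 ± 2.66 and 9.49 ± 2.54 CPM (SD) in the vehicle and DHA groups of WT and then of Tg2576 mice. Kcnj8 (Kir6.1), found in pericytes, had 3.26 ± 0.478, 3.26 ± 1.05, 2.69 ± 0.821 and 2.41 ± 0.501 CPM in the same order. Kcnn4 (KCa3.1), known from microglia, stayed under 1 CPM in every mouse (0.0959 to 0.969 CPM).

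Several abundant members were not called in any comparison. Kcnab2, the highest of all, had 1055 ± 61.98, 1062 ± 119.8, 1006 ± 90.5 and 962 ± 13.99 CPM (SD) in the vehicle and DHA groups of WT and then of Tg2576 mice. Kcnma1 had 241 ± 21.03, 229 ± 28.6, 229.6 ± 31.4 and 239 ± 43.97 CPM, and its log2 fold changes between 2 groups ran from -0.07 (SE 0.12) for DHA in WT mice to 0.06 (SE 0.13) for genotype under DHA. Kcnk1 varied 1.27-fold between the lowest and the highest of the 15 mice, Kcnk2 1.29-fold and Kcnq5 1.33-fold. The range was 1.35-fold for Kcnab2 and 1.45-fold for Kcnma1. It was much the same for Kcnab1 (1.39-fold) and Kcnc4 (1.44-fold), which were called with DHA in WT mice. Wider ranges were those of Kcna1 (4.49-fold), Kcnj6 (3.64-fold) and Kcnj13 (122-fold).

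Groups that did not overlap were counted without regard to p. There were 4 such members of 83 for genotype under vehicle (5.16% of all genes), 7 for genotype under DHA (8.55%), 5 for DHA in WT mice (5.02%) and 2 for DHA in Tg2576 mice (3.2%). These shares were near the background in all 4 comparisons. Reads in bases shared with another gene were left out of both genes, which touched over 10% of the exon bases of 6 members, with the largest shares in Kcnj13, Kcna6 (39.6%) and Kcnmb4 (31.5%), and none of these 3 was called.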

How the data were processed

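For each of the 15 mice, the deposited values were raw read counts over 55401 genes. The authors made them with featureCounts 1.6.0 on GENCODE M25, per the file headers, and the submitters' processing notes name STAR 2.6.1c and GRCm38. The command in the headers left the counter at its defaults, which use no strand and drop reads of several genes or places. The labels and the paper name different library kits. Symbols and gene types came from GENCODE M21 by gene identifier.

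Counts were analysed with edgeR 4.0.16 in R 4.3.3. The filterByExpr function (minimum count 10) kept 19536 genes, TMM factors ran from 0.961 to 1.03, and the common biological coefficient of variation was 20.1%. A robust quasi-likelihood model with 1 coefficient per group gave 7 two-sided comparisons with 11 residual degrees of freedom. Standard errors are the log2 fold change over the square root of F. Calls used an unadjusted p under 0.01, and adjusted p-values (Benjamini-Hochberg) cover all genes tested. Log2 CPM, with a prior count of 2, also entered exact permutation tests between pairs of groups. Coordinates are from GENCODE.

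Alternatives were DESeq2 1.42.0, library sizes without TMM, no filter on low counts, the replicate number as a block, an offset for gene length (lowess span 0.3), 1 surrogate variable (sva 3.50.0), each mouse left out, and, added after the data were seen, log2 CPM of Ttr as a covariate. The Ttr level of 1000 CPM that splits the mice was set after seeing the data. The workflow was tested on simulated counts for genotype under vehicle, with 200 changed genes. At a log2 change of 0.5, 31% of them had p under 0.01, and at a change of 1, 89.5% did. Every simulated gene had the same spread, and no effect was shared by the genes of a mouse. These shares therefore need not hold for the potassium channel genes. Named genes were those with p under 0.01 in a comparison, the 3 of lowest p in each, the 2 most abundant of each subfamily, 27 chosen by role, and partner genes with p under 0.01. Members and lists were chosen with earlier results of these data known. Genes named only as highest or lowest in 1 mouse, or at p under 0.05, were chosen after their values were seen. Figures were drawn with matplotlib 3.10.9. Single values of 3 members are not reported here.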

Additional observations from a re-analysis of the deposited data

Results flagged for a closer look

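In the groups of 4 mice, the highest or lowest mouse of each named member was compared with its nearest neighbour by Dixon's test at 95%. Of 162 tests, 7 were past the limit, where chance gives about 1 in 20. Mouse 3 of WT DHA stood above its group for Kcnj13 (10.7 CPM, next 1.20) and Kcne2 (14.8 CPM, next 1.43), and its Ttr was the highest of the 15 mice at 5598 CPM. Mouse 4 of Tg2576 vehicle was highest for Kcnip4 (46.9 CPM, next 39.4) and Kcnk4 (21.6 CPM, next 15.4), and this mouse also had the highest sum of neocortex marker genes (327 CPM). Mouse 1 of Tg2576 vehicle was lowest for Kcnv1 (23.0 CPM, next 28.4). Without that mouse Kcnv1 kept an unadjusted p under 0.01 for genotype under vehicle. Mouse 2 of WT DHA was highest for Kcnj16 (29.5 CPM, next 25.2), and mouse 4 of WT DHA was lowest for Kcnq5 (66.9 CPM, next 77.0).

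For Kcna4, the estimated effect of DHA differed between the genotypes by 0.60 on the log2 scale (interaction term of edgeR, adjusted p = 0.845). This term passed an unadjusted p under 0.01, as 1 of 83 members (1.2%) against 0.829% of all genes. The call was lost in 11 refits without 1 mouse, with 1 surrogate variable and with Ttr as a covariate. In WT mice the 4 DHA values (21.8 to 27.7 CPM) lay below the vehicle values (27.5 to 35.3 CPM) except for 1 mouse, and in Tg2576 mice the DHA values (24.4 to 27.6 CPM) lay inside the vehicle range (16.3 to 28.3 CPM).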

How the results depend on the processing

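Among the 19 gene and comparison pairs with p under 0.01, no log2 fold change turned sign under any setting. Of these, 111 refits with another setting kept p under 0.01 and 22 did not, and 175 refits without 1 mouse kept it and 110 did not. Kcnv1, Kcnj6 and Kcna4 for genotype under vehicle and Kcnc4 for DHA in WT mice kept it in all of them. The number of members called moved more. For genotype under vehicle it went from 5 to 3 without TMM factors, to 10 without the filter on low counts and to 8 with 1 surrogate variable. For genotype under DHA it went from 1 to 3 with DESeq2 and without the filter, to 2 with the replicate block, with the length offset and with the surrogate variable, and to 0 with Ttr as a covariate. With Ttr as a covariate it also went from 5 to 3 for DHA in WT mice. For the interaction it went from 1 to 2 with DESeq2 and with the length offset, and to 0 with the surrogate variable and with Ttr. For the genotype average it went from 3 to 5 without the filter, to 6 with the block and with the length offset and to 8 with the surrogate variable, and for the DHA average from 4 to 2 without TMM factors and to 1 with Ttr. The cause was not tested. Leaving out 1 mouse gave 3 to 10 calls for genotype under vehicle, 0 to 3 under DHA, 1 to 6 for DHA in WT, 0 to 3 for DHA in Tg2576, 0 to 4 for the interaction, 1 to 6 for the genotype average and 0 to 5 for the DHA average. Equal replicate numbers were not taken as pairs of mice. The correlation of same-numbered deviations had a median of 0.0117 (range -0.244 to 0.213). For the other pairs it was 0.00305 (range -0.235 to 0.230). These medians cannot exclude that some mice were paired. The block on replicate number gave 6 calls for genotype under vehicle, 5 for DHA in WT and 6 for the DHA average.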
